A study of Callithrix jacchus with 4 samples.

Results

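The endothelial and vascular nuclei of marmoset primary visual cortex (V1) were taken as every nucleus that the authors assigned to their Endo class, which held 4625 of the 38147 nuclei in the series. The injured cohort was made up of adult marmosets, n = 3, that had received endothelin-1 (ET-1), a peptide that constricts blood vessels and cuts off local flow, in V1 of the left hemisphere 7 days earlier, with the ischemic core and the penumbra kept in the dissection. The control cohort was made up of non-lesioned adult marmosets, n = 3, whose V1 nuclei were pooled in 1 library. Gray matter of the operculum was taken in both cohorts, without the calcarine part of V1. Single-nuclei RNA sequencing counted unique molecular identifiers (UMIs), 1 for each captured RNA molecule, and each injured animal gave 1 library (injured 1, 2 and 3). Endo nuclei numbered 1021, 1735 and 1688 in the injured libraries and 181 in the control library. They held 2432687, 4193861 and 4450158 UMIs against 204095, and the median nucleus had 1671, 1817 and 1914 UMIs against 922. Of the cell barcodes of the class, 1 was found in a pair of libraries (injured 1 and 3), beside 15 to 27 barcodes shared by each pair over all nuclei.

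Vessels of the cortex are lined by endothelial cells, which are sealed by tight junctions and move glucose, amino acids, iron and drugs across the blood-brain barrier through dedicated transporters. Mural cells (pericytes and smooth muscle cells) wrap the endothelial tube, and perivascular and meningeal fibroblasts lay down collagen around larger vessels and at the brain surface. FLT1, the marker given for the class, encodes a receptor for vascular endothelial growth factor (VEGF). The authors used FLT1, IGFBP7 and SLC2A1 as markers to assign clusters to the class.

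The cohorts differed in more than the lesion. Nuclei isolation, sorting (control only), sequencing platform and doublet removal (Scrublet for injured, quality filters in Seurat for control) were not the same, and none of these can be told apart from injury. Ribosomal protein genes, transcripts of the cytoplasm that also enter nuclei preparations, summed to 11703, 7296 and 9732 CPM (UMIs scaled to 1000000 UMIs of the class) in injured Endo nuclei against 671 CPM in control Endo nuclei. In the nuclei outside the class the same sums were 1887, 1417 and 1373 against 578 CPM. The part of this difference in the values below was not tested.

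Endo nuclei formed 13.6% (95% exact binomial interval 12.8 to 14.4), 13.9% (13.2 to 14.5) and 17.7% (17.0 to 18.5) of the nuclei of the injured libraries, 15.1% ± 2.32 (SD, n = 3). They formed 2.10% (1.81 to 2.43) of the control library. Intervals cover counting error only. The 3 injured shares were each above the control share, and with 3 libraries against 1 a permutation test cannot reach p = 0.05. The order was the same with microglia left out of the denominator (21.8%, 17.6% and 23.1% against 2.13%) and among nuclei with at least 1000 UMIs (9.96%, 11.1% and 13.95% against 1.20%). These shares include injured cluster 19, which is described below and had no vascular marker among its leading genes. Without it, 477 of 7500, 935 of 12527 and 1027 of 9510 injured nuclei remained in the class, against 181 of 8610 control nuclei.

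The authors clustered each cohort on its own, and the Endo class joins several of those clusters, which carried different markers in each cohort. In the control library, 155 of 181 Endo nuclei (85.6%) sat in control cluster 15. Its leading genes against all nuclei outside the class were CEMIP, a hyaluronan-degrading protein, SLC6A13, a GABA transporter of fibroblasts and meninges, LAMA2, a laminin chain, and the complement gene C7. Only 26 nuclei (14.4%) sat in control cluster 22, led by LEF1, PLAT, FLT1, ABCG2, SLCO2B1 and VWF. By its leading genes most of the control class was therefore fibroblast-marked, which goes against the Endo label, and the clusters are named here by their markers.

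In the injured libraries, 32.1%, 38.3% and 38.7% of Endo nuclei sat in cluster 14, led by CLDN5 (a tight junction protein, not listed in the control table), GNG11, SLC2A1, IGFBP7, FLT1 and VWF and also by RGS5, a pericyte gene. Cluster 20 held 13.8%, 14.4% and 18.7%, with CEMIP, COL1A2, DCN, C7, FN1 and LAMA2 at its head. Cluster 11 was small, with 0.784%, 1.21% and 3.44%, and was led by HBB, a hemoglobin chain of red blood cells, together with CLDN5, FLT1, LEF1 and ABCB1. HBB in cluster 11 came from injured library 2 (7243 CPM) and library 3 (601 CPM), where 3 of 21 and 3 of 58 nuclei held it, whereas the 8 nuclei of injured library 1 held 0 UMIs of it. Cluster 19 held 53.3%, 46.1% and 39.2% and stays unnamed. Its leading genes were HBB, VIM, IGFBP3, S100A6 and SPP1, no endothelial, mural or fibroblast marker was among the first 10, and its median nucleus had 1157, 1231 and 1081 UMIs, a ratio of 0.257, 0.349 and 0.256 to the median of its whole library.

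**Figure D1:**
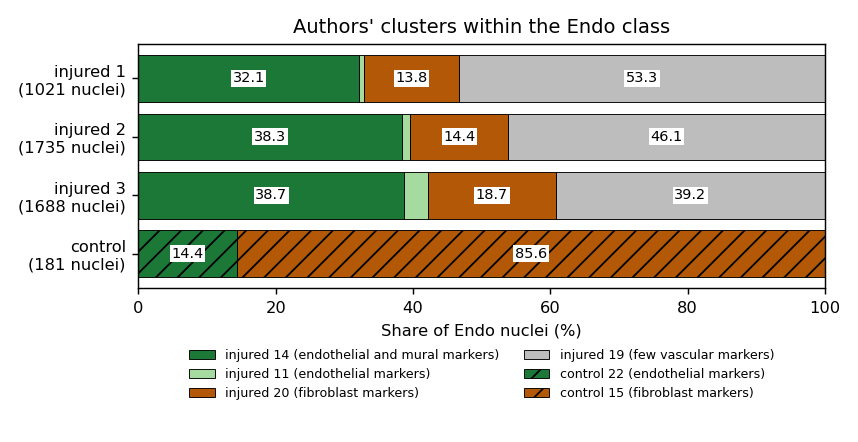
Share of Endo nuclei (x axis, percent) in each of the authors' clusters, 1 bar per library, with hatched bars for control clusters. The control bar is 85.6% fibroblast-marked cluster 15, whereas the fibroblast-marked cluster 20 makes up 13.8 to 18.7% of the injured bars.

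Summed levels of marker lists followed the same split. Several list members were among the leading genes that named the clusters, so the sums are no separate support for the names. The endothelial list (12 genes listed for both cohorts, among them FLT1, PECAM1, VWF, ERG and ABCB1) summed to 8682, 8422 and 9894 CPM in injured cluster 14 and to 11950 CPM in control cluster 22. It summed to 316 CPM in control cluster 15 and to 197, 187 and 190 CPM in injured cluster 19. All injured cluster 14 sums lay below that of control cluster 22. The fibroblast list (8 genes, among them LAMA2, DCN, CEMIP and collagen genes) summed to 15483, 9840 and 15606 CPM in injured cluster 20 against 11994 CPM in control cluster 15, which lay inside the injured range. The mural list (9 genes, among them RGS5, NOTCH3 and PDGFRB) was highest in injured cluster 14, at 2181, 1801 and 2359 CPM, against 243 CPM in control cluster 22. Injured cluster 19 held neuronal list genes at 5199, 5199 and 4965 CPM. For the mural list, control cluster 22, whose whole sum was 20585 UMIs, stood below every cluster 14 value.

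**Figure D2:**
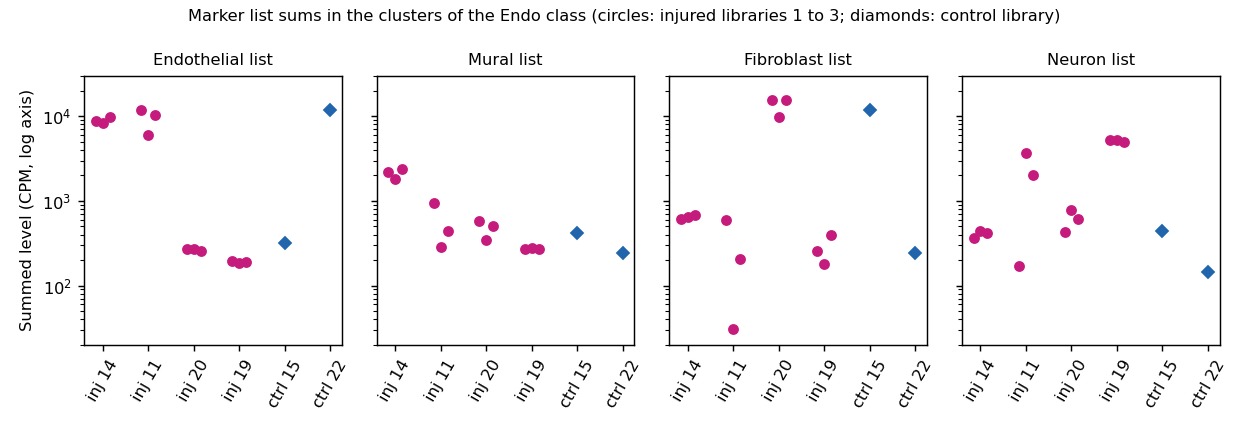
Summed CPM (y axis, log scale) of the endothelial, mural, fibroblast and neuronal marker lists in each cluster of the Endo class, with 1 circle per injured library and a diamond for the control library. Endothelial sums lie between 8422 and 9894 CPM in injured cluster 14 and at 11950 CPM in control cluster 22, and mural sums are at 1801 to 2359 against 243 CPM.

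A UMI of FLT1 was found in 25.8%, 32.7% and 36.6% of injured Endo nuclei and in 13.8% of control Endo nuclei. With each nucleus thinned to 500 UMIs, these shares were 14.6%, 21.2% and 24.0% against 12.7%. Injured library 1 then lay inside the control interval, and libraries 2 and 3 lay above it. Excitatory neurons, which should lack FLT1, gave 0.376 to 0.597% at the same depth in the injured libraries and 0.444% in control. The class share lay above this in both cohorts, but FLT1 was among the authors' markers for assigning the class, so that order was set beforehand. By cluster, FLT1 was found in 72.0%, 77.4% and 80.3% of injured cluster 14 nuclei and in 88.5% of control cluster 22 nuclei. It was found in 1.29% of control cluster 15 nuclei and in 2.57%, 2.25% and 3.63% of injured cluster 19 nuclei.

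Fibroblast markers marked most of the control class and a minority of the injured class once depth was matched. A UMI of the fibroblast list was found in 43.0%, 39.4% and 53.0% of injured Endo nuclei against 84.5% of control ones, and at 500 UMIs in 25.9%, 22.7% and 33.4% against 81.2%. Excitatory neurons gave 5.64 to 7.14% at that depth in the injured libraries and 7.02% in control. LAMA2 alone was found in 16.0%, 22.02% and 22.10% against 65.7% of all nuclei of the class. Injured and control shares did not overlap at either depth. Mural list UMIs were found in 23.9%, 24.8% and 31.3% of injured nuclei thinned to 500 UMIs against 13.8% of control ones. Excitatory neurons gave 8.89 to 10.3% for the mural list at that depth in the injured libraries and 18.0% in control, so the control class was at or below background for it. For RGS5 alone the unthinned shares were 22.7%, 23.6% and 31.8% against 3.31%.

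Each nucleus was also assigned to the list with the most UMIs, if that list had at least 2. Endothelial-led nuclei made up 29.2%, 34.5% and 36.4% of the injured class against 14.4% of the control class. Fibroblast-led nuclei made up 16.3%, 15.7% and 21.2% against 79.0%, and mural-led nuclei 7.64%, 8.01% and 7.82% against 2.21%. No list led in 45.2%, 41.0% and 33.6% of injured Endo nuclei against 3.31% of control ones. The 26 control endothelial-led nuclei were the nuclei of cluster 22. Mural UMIs often accompanied endothelial ones in the injured libraries, where 54.0%, 52.8% and 62.3% of endothelial-led nuclei held at least 2 of them, against 3.85% in control. The median endothelial-led nucleus had 2649, 2927 and 3052 UMIs in the injured libraries and 748 in control, and the part of this depth in that share was not tested.

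**Figure D3:**
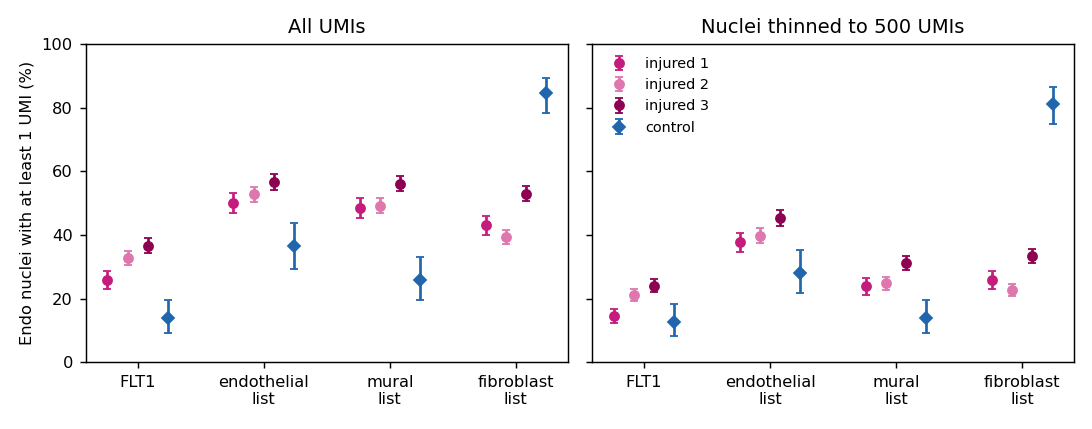
Share of Endo nuclei (y axis, percent) with at least 1 UMI of FLT1 or of a marker list, at full depth (left) and thinned to 500 UMIs per nucleus (right), with exact 95% binomial intervals. Fibroblast list shares of the control library (84.5% and 81.2%) lie far above those of the injured libraries, and the FLT1 share of injured library 1 meets the control interval after thinning.

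Summing UMIs over the whole class, 7 of 12 endothelial list genes and 5 of 15 MHC class I genes were higher in injured Endo nuclei, and the fibroblast genes LAMA2 and CEMIP were lower. Of 13205 genes tested with edgeR, 816 were called, or 6.18% of those tested: 553 were higher in the injured cohort (4.19%) and 263 lower (1.99%). A call needed a Benjamini-Hochberg adjusted p below 0.01, a natural-log fold change above 0.25 in size and detection in 10% or more of nuclei in the injured or the control cohort. With library size as the scale, 355 genes were higher and 264 lower, and log2 changes moved by a median of -0.12. The spread came from the injured libraries only, and the count was 513 without injured library 1, 1617 without injured library 2 and 1418 without injured library 3. Among nuclei led by the endothelial list, edgeR called 0 genes of 11079, with 1360 at an unadjusted p below 0.05; the control side of that comparison held 26 nuclei. With each nucleus thinned to 500 UMIs the count was 308, and 39 of the 75 called genes named from this comparison were no longer called. Thinning also cut the control sum from 204095 to 90500 UMIs and gave each nucleus the same weight. In injured library 1, cluster 19 held 844347 of 2432687 UMIs of the class but 544 of its 1021 nuclei. Thinning therefore shifted the cluster weights as well as the depth. The cluster make-up given above differs in the same comparison, and its part was not tested.

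Of 12 endothelial list genes tested, 7 rose and 0 fell, with a median log2 change of 1.96 against 0.26 over all genes tested (-0.05 with genes of 0 control UMIs set at their bound). FLT1 was at 836, 1191 and 1374 CPM in the injured libraries and 299 CPM in control. All injured values lay above the control value, for a log2 change of 2.06 ± 0.37 (SE; adjusted p = 0.00688), which missed the limit of 0.01 with scaling by library size alone (adjusted p = 0.0103), in nuclei of at most 2500 genes (0.0279) and in nuclei with no microglia list UMI (0.0995). VWF, the platelet-tethering factor of endothelium, rose by 2.22 ± 0.33 on the log2 scale (adjusted p = 0.0029), and ERG, an endothelial transcription factor, rose by 2.08 ± 0.29 (adjusted p = 0.00249). ADGRL4, EMCN, ABCB1 and CYYR1 also rose. At a matched depth of 500 UMIs a nucleus, all 7 genes lost their call, with FLT1 at a log2 change of 1.46 (adjusted p = 0.0469), ERG at 1.14 (0.0638) and CYYR1 at 0.81 (0.182). Thinning also shifted the cluster weights, as given above. PECAM1, the junctional adhesion molecule of endothelium, was at 144, 163 and 168 CPM against 83.3 CPM and was not called (adjusted p = 0.0396), nor was CDH5, the cadherin of endothelial junctions, at 43.2, 69.1 and 52.6 CPM against 127 CPM. Among nuclei with no UMI of the mural or fibroblast list (340, 649 and 417 injured, 23 control) 56 genes were called and the direction of several endothelial genes turned, with log2 changes of -1.05 for FLT1, -0.80 for VWF, -0.95 for ERG and -2.10 for PECAM1. That filter also shifted the cluster make-up. A mural list UMI was held by a mean of 79.7% of injured cluster 14 nuclei and 27.7% of injured cluster 19 nuclei. Fibroblast-led nuclei formed 92.3% of control cluster 15. The part of this shift in the turned directions was not tested.

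Of 9 mural list genes tested, 3 rose, and none of the 3 kept its call at 500 UMIs a nucleus. RGS5 was at 478, 392 and 661 CPM in the injured libraries and 49.0 CPM in control, with no overlap, for a log2 change of 3.51 ± 0.48 (adjusted p = 0.00218). NOTCH3, the Notch receptor of mural cells, rested on 3 control UMIs, and its ratio of injured to control CPM was 7.81 (95% counting interval 2.67 to 37.9). TAGLN, a smooth muscle actin-binding protein, rested on 1 control UMI, with a ratio of 25.0 (4.49 to 990), and DESeq2 did not call it. PDGFRB, the pericyte receptor for platelet-derived growth factor, was not called (log2 change 1.15 ± 0.35, adjusted p = 0.0495).

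Of 8 fibroblast list genes tested, 2 fell and 0 rose. LAMA2 was at 666, 570 and 629 CPM in the injured libraries and 4204 CPM in control, and it fell by 2.63 on the log2 scale (SE 0.21, adjusted p = 0.000613). CEMIP fell by 2.27 (SE 0.31, adjusted p = 0.00224). Values of DCN, a matrix proteoglycan, were 355, 248 and 370 CPM against 622 CPM and did not pass the test, and COL1A2, a chain of type I collagen, at 624, 269 and 746 CPM against 333 CPM, did not either. Control values of LAMA2, CEMIP and DCN were above all injured values, in contrast to COL1A2. Among the largest falls outside the lists were those of SLC5A5, which fell by 5.11 on the log2 scale (9.45, 11.7 and 4.27 CPM against 318 CPM), PTGFR, a prostaglandin receptor, ALX4, a homeobox gene, MLXIPL, GREB1, SLC47A1, a cation exporter, and PRKAG2, and all of these had 0 to 4 UMIs in control cluster 22, the control endothelial-marked nuclei. When thinned to 500 UMIs, SLC5A5, PTGFR, ALX4, MLXIPL and GREB1 lost their call. PTGFR also lost it without injured library 1, in nuclei of at most 2500 genes and without injured cluster 19.

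Barrier transporters, 17 of them tested, gave 6 rises and 1 fall, beside 2 rises among 9 junction genes. Of these 9 calls only that of SLC2A1 was kept in nuclei thinned to 500 UMIs. Over all genes tested, 4.19% were higher and 1.99% lower. Of 9 genes of the Wnt pathway that induces the barrier, 0 were called by edgeR and by DESeq2, and 2 had an unadjusted p below 0.05. SLC2A1, the glucose transporter GLUT1, was at 823, 1014 and 939 CPM against 142 CPM, without overlap, for a log2 change of 2.84 ± 0.32 (adjusted p = 0.000954). SLC3A2, a chain of amino acid exchangers, rose by 2.07 ± 0.32, SLC40A1, the iron exporter ferroportin, by 2.70 ± 0.42, and TFRC, the transferrin receptor, by 1.63 ± 0.30 on the log2 scale. SLC38A5, a glutamine transporter, had a ratio of 16.2 (5.53 to 78.4) over 3 control UMIs. ABCC4, an efflux pump, fell by 1.55 on the log2 scale, from 343 CPM in control to 91.3, 106 and 121 CPM. The junction genes that rose were ESAM, an endothelial adhesion molecule (2.46 ± 0.31), and CTNNB1, beta-catenin (1.62 ± 0.27).

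Among 18 tested genes of VEGF, angiopoietin and Notch signalling, 2 rose and 1 fell, beside 4.19% higher and 1.99% lower over all genes. TIE1, an endothelial receptor, rose alongside FLT1, with a ratio of 7.88 (2.69 to 38.3) over 3 control UMIs, but neither was called when thinned (adjusted p = 0.0724 for TIE1), nor TIE1 without injured library 1 (0.0166). KDR, the main signalling receptor for VEGF, was at 144, 196 and 162 CPM against 534 CPM and fell by 1.54 on the log2 scale (SE 0.24, adjusted p = 0.00406), or by 0.99 without injured cluster 19, which was not called (adjusted p = 0.0238). Of 109 control UMIs of KDR, 108 lay in fibroblast-marked cluster 15, against 2 of 61 for FLT1. Of 5 endothelin genes tested only EDNRA, the vasoconstrictor receptor of mural cells, was called (log2 change 1.94 ± 0.36), while DESeq2 called none of them (adjusted p = 0.0238 for EDNRA) and edgeR did not call EDNRA when nuclei were thinned (0.311).

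Immune genes that rose had few control UMIs. Of 15 tested genes of MHC class I presentation, 5 rose. Of these, PDIA3 lost its call under 9 of 16 alternatives, DESeq2 among them, and TAP1 under 7 of 16, among them library size alone. B2M, the light chain of MHC class I, was at 11431, 11237 and 7384 CPM against 98.0 CPM (20 control UMIs), for a log2 change of 6.81 ± 0.55 (adjusted p = 0.000613). CAJA-E, a class I heavy chain, had a ratio of 80.8 (27.7 to 392), TAP1, a peptide transporter, 54.4 (9.76 to 2150), and CALR, a chaperone of class I loading, 60.9 (16.8 to 503). Nuclei outside the class also held B2M at 2198, 2174 and 1322 CPM in the injured libraries and at 6.41 CPM in control, and the contrast of changes between cell types, given further on, did not call B2M (-1.57 on the log2 scale, adjusted p = 0.0612). Of 6 class II genes 2 rose, CD74, the invariant chain, with a ratio of 90.3 (16.2 to 3569), and CAJA-DRA with 39.2 (7.03 to 1550), each over 1 control UMI. In nuclei with no microglia list UMI, CAJA-DRA was not called (adjusted p = 0.0216). Both are also genes of microglia and macrophages, whose marker list summed to 922, 640 and 504 CPM in injured Endo nuclei against 220 CPM in control ones. CD74 is itself on that list, so its own UMIs are part of these sums. The filter on that list also removed every nucleus with a CD74 UMI.

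Of 29 tested interferon-response genes, 3 were called and 0 fell. Among them, IFI6 rose by 3.42 ± 0.47 on the log2 scale and SAMD9L by 4.13 ± 0.77. Injured library 2 was the highest of the 3 for both genes. Without injured library 1, SAMD9L was no longer called (adjusted p = 0.0142). At an adjusted p limit of 0.05, at which 9.17% of all genes were higher, 12 of these 29 genes were.

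Matrix and injury-response genes gave further rises, beside 4.19% higher and 1.99% lower over all genes tested. Of 25 matrix genes, 5 rose, among them COL4A1, the collagen of basement membrane (1.997 ± 0.306 on the log2 scale), SPARC, a collagen-binding protein (3.32 ± 0.35), and ITGB1, the beta-1 integrin (2.59 ± 0.29). Of 16 injury-response genes, 7 rose: KLF2, a flow-sensing factor of endothelium, by 3.07 ± 0.39, CD9 by 2.10 ± 0.38 and RTN4, which encodes Nogo, by 1.55 ± 0.25. Without injured cluster 19, CD9 (adjusted p = 0.0142) and RTN4 (0.0158) were no longer called. S100A6 and KLF6 had 0 control UMIs and were at least 30.1-fold and at least 9.67-fold higher, with 3 UMIs over the control class as the floor. Haemostasis genes PLAT, a plasminogen activator, F2R, the thrombin receptor, and VWF rose, 3 of 9, and 0 of the 3 were called when thinned (adjusted p = 0.49 for F2R, which DESeq2 did not call either, at 0.0302). Of 17 hypoxia genes, EPAS1, PGK1 and SLC2A1 rose and NDRG1 fell. When thinned, calls were kept by 3 of the 5 matrix genes, COL4A1 not among them, by 3 of the 7 injury-response genes, without KLF2, CD9 and KLF6, and by 2 of the 4 hypoxia genes, NDRG1 and SLC2A1. Of 8 proliferation genes, 0 were called by edgeR or DESeq2 and 3 had an unadjusted p below 0.05.

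Leukocyte adhesion and inflammatory genes, 12 of them tested, gave 1 rise and 1 fall, beside 4.19% higher and 1.99% lower over all genes. NFKBIA, the inhibitor of NF-kappa-B, was at 153, 157 and 117 CPM against 24.5 CPM (log2 change 2.67 ± 0.47, adjusted p = 0.00636), and it was not called without injured library 1 (0.0155) or when thinned (0.0191). ALCAM, an adhesion molecule, was at 187, 345 and 277 CPM against 1093 CPM, and it fell by 1.88 on the log2 scale (SE 0.31, adjusted p = 0.00488, and 0.0114 without injured cluster 19). The endothelial-marked control nuclei held 0 UMIs of ALCAM, so its control UMIs all lay in the fibroblast-marked control cluster. Among nuclei led by the endothelial list its direction turned, over 0 control UMIs, for which the fold is only a bound. VCAM1 was at 91.7, 87.7 and 115 CPM against 29.4 CPM and was not called (adjusted p = 0.0207). ACKR1, the chemokine receptor of venules, had 0 control UMIs and was at least 4.51-fold higher, but too few nuclei held it for a call, and SELE, the selectin of activated endothelium, was at least 1.996-fold higher and was not called.

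Of the 10 largest rises with at least 4 control UMIs, 4 had only an Ensembl identifier. Beside B2M the others were the ribosomal protein gene RPS28 (5.396 ± 0.459), FTL, ferritin light chain (5.24 ± 0.47), RPS3, another ribosomal protein gene (5.17 ± 0.55), the chaperone HSPA5 (4.61 ± 0.41) and EEF2, a translation elongation factor (4.58 ± 0.50), all on the log2 scale. Among genes with 0 to 3 control UMIs, MGP, a matrix protein of vessel walls, was at 522, 429 and 591 CPM against 1 control UMI (ratio 105, 18.8 to 4148). MGP was at 1064, 719 and 966 CPM in injured cluster 14 and at 37.9, 20.6 and 39.5 CPM in injured cluster 19. HBB was at 430, 1212 and 471 CPM over 2 control UMIs (ratio 75.8, 21.0 to 626), a call lost under 6 of 16 alternatives (adjusted p = 0.0363 without injured cluster 19), and PTMA had a ratio of 82.9 (28.4 to 402).

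Among markers of other cell types, 3 of 11 neuronal list genes rose and 1 of 7 astrocyte list genes fell. SYT1, a synaptic vesicle protein of neurons, was at 1146, 1012 and 775 CPM against 201 CPM (log2 change 2.41 ± 0.34, adjusted p = 0.00237), and RBFOX3 rose as well, but was not called without injured library 1 (adjusted p = 0.0104), and its log2 change was -0.20 without injured cluster 19. Without that cluster the log2 change of SYT1 was 0.63 (adjusted p = 0.289). The neuronal list summed to 2055, 1869 and 1484 CPM in the class against 416 CPM. SYT1 stood at 2961, 2785 and 2563 CPM in injured cluster 19 and at 162, 230 and 207 CPM in injured cluster 14. SLC1A3, an astrocyte glutamate transporter also found in fibroblasts, fell by 1.998 on the log2 scale, and control cluster 15 held 170 of its 171 control UMIs. Of 5 oligodendrocyte, 3 OPC and 5 lymphocyte list genes tested, 0 were called by edgeR or DESeq2, and 4, 1 and 0 of them had an unadjusted p below 0.05.

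Fibroblast-marked nuclei were then compared on their own, injured cluster 20 (141, 249 and 315 nuclei) against control cluster 15 (155 nuclei). B2M, CAJA-E and CALR, 3 of 14 MHC class I genes tested, rose there, whereas LAMA2 and CEMIP no longer passed the test. Of 9887 genes tested, 11 were called (0.111%), 10 higher (0.101%) and 1 lower. At an adjusted p limit of 0.05 the count was 244 (2.47%), 197 of them higher. It was 52, 694 and 90 at the limit of 0.01 without injured library 1, 2 and 3, and the 11 genes were among the called genes each time. Ribosomal protein genes summed to 6724, 3627 and 4616 CPM in cluster 20 against 632 CPM in cluster 15. The part of this difference in the 11 calls was not tested.

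B2M was at 6929, 5634 and 3425 CPM in cluster 20 and 98.1 CPM in cluster 15 (log2 change 5.81 ± 0.56, adjusted p = 0.00462). TFEC, a transcription factor of the MITF family, was at 1215, 1077 and 928 CPM against 65.4 CPM (4.08 ± 0.38, adjusted p = 0.00430), and CD81, a tetraspanin, at 477, 447 and 469 CPM against 59.9 CPM (3.00 ± 0.34, adjusted p = 0.00938, and 0.0133 with library size alone). With library size alone, and in fibroblast-led nuclei, 8 of the 11 calls remained, without CD81 and CAJA-E. No injured value of these genes came near the control value. The other rises with a gene name rested on 1 to 3 control UMIs: CAJA-E (ratio 131, 23.5 to 5187), CALR (57.3, 15.8 to 473), HSPA5 (34.2, 11.7 to 166) and C1S, a complement protease (65.9, 11.8 to 2606).

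Outside the class, TFEC was at 1757, 1836 and 1499 CPM in injured nuclei against 156 CPM in control nuclei. CALR was at 175, 157 and 148 CPM there against 13.0 CPM, and HSPA5 at 137, 150 and 122 CPM against 13.4 CPM, so that injured values of all 3 genes lay above control in other cell types too.

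The collagen genes COL1A2 and COL1A1 lay higher in cluster 20 and LAMA2 lower, in each case short of the limit for a call. COL1A2 was at 2950, 1148 and 2900 CPM against 371 CPM (log2 change 2.70 ± 0.56, adjusted p = 0.0436). Without injured library 2, the lowest for COL1A2, this gene passed the limit, as did DCN and LAMA2. That fit takes its spread from injured libraries 1 and 3 alone, so its p-values are not given. COL1A1 had a log2 change of 5.11 ± 0.94 (adjusted p = 0.0329) over 6 control UMIs. FN1, fibronectin, was at 2520, 2173 and 2736 CPM against 796 CPM (1.69 ± 0.28, adjusted p = 0.0243). LAMA2 was at 2505, 2090 and 1922 CPM against 4675 CPM (-1.05 ± 0.24, adjusted p = 0.0538), and CEMIP at 4359, 3945 and 5590 CPM against 5809 CPM (-0.27 ± 0.26, adjusted p = 0.576). The log2 change of LAMA2 over the whole class was -2.63, and the difference between these values was not tested. VCAM1, a leukocyte adhesion molecule, was at 201, 137 and 222 CPM against 27.2 CPM (2.82 ± 0.54, adjusted p = 0.0357) and was not called.

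Endothelial-marked nuclei, injured cluster 14 (328, 665 and 654 nuclei) against control cluster 22 (26 nuclei), differed in few genes, on a control sum of 20585 UMIs. Of 11182 genes tested, 3 were called (0.0268%), all higher: B2M, at 18138, 17348 and 10916 CPM against 2 control UMIs (ratio 153, 42.3 to 1261), FTL, at least 15.6-fold higher, and PTMA, at least 13.97-fold higher, both over 0 control UMIs. Of the 1505 genes with at least 4 control UMIs, edgeR called 0 (228 at an unadjusted p below 0.05) and DESeq2 6, and 5599 of the genes tested had 0 control UMIs, for which the fold is only a bound. DESeq2 called 15 genes. Without injured library 1, 2 and 3, edgeR called 6, 228 and 108 genes, and the 3 genes were among them each time. Ribosomal protein genes summed to 18250, 10866 and 14401 CPM in cluster 14 against 1020 CPM in cluster 22. The part of this difference in the 3 calls was not tested.

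FLT1, SLC2A1 and VWF, which rose in the whole class, were not called in this comparison by edgeR or DESeq2. FLT1 was at 1758, 2175 and 2452 CPM against 2866 CPM, SLC2A1 at 1719, 1863 and 1693 CPM against 1312 CPM, and VWF at 1056, 817 and 1115 CPM against 1166 CPM. All injured FLT1 and VWF values were below the control value, while those of SLC2A1 were above it. The log2 change of FLT1 was 0.35 ± 0.31 (adjusted p = 0.64) and turned to -0.40 when libraries were scaled by size alone, and that of SLC2A1 was 1.20 ± 0.32 (adjusted p = 0.118) and 0.45. This scaling moved genes with at least 4 control UMIs by a median of -0.75, so directions of small changes here depend on it. ABCG2 and LEF1 had log2 changes of -0.33 and -0.51, PECAM1 was at 294, 286 and 295 CPM against 826 CPM (-0.73 ± 0.32, adjusted p = 0.386), and SLC7A5, a barrier transporter of large neutral amino acids, was at 197, 287 and 312 CPM against 1312 CPM (-1.52 ± 0.38, adjusted p = 0.098).

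IGFBP7, a secreted protein of vessel walls, was at 3351, 2316 and 2892 CPM in cluster 14 against 680 CPM in cluster 22 (2.84 ± 0.41, adjusted p = 0.0204) and reached the limit of 0.05, at which 1.22% of genes were called, but not 0.01, whereas DESeq2 called it (adjusted p = 0.000167). RGS5 was at 1015, 729 and 1222 CPM in cluster 14 and had 0 UMIs in cluster 22, at least 6.79-fold higher. Mural-led nuclei made up 13.7%, 12.9% and 12.8% of cluster 14 and 0 of the 26 nuclei of cluster 22. The part of this difference in the values of IGFBP7 and RGS5 was not tested. CAJA-E was at 2040, 2185 and 1152 CPM over 2 control UMIs (ratio 17.8, 4.93 to 147) and did not pass the limit. RTN4 was at 397, 519 and 473 CPM against 486 CPM (0.71 ± 0.41, adjusted p = 0.501), with a log2 change of -0.038 under scaling by library size alone.

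**Figure D4:**
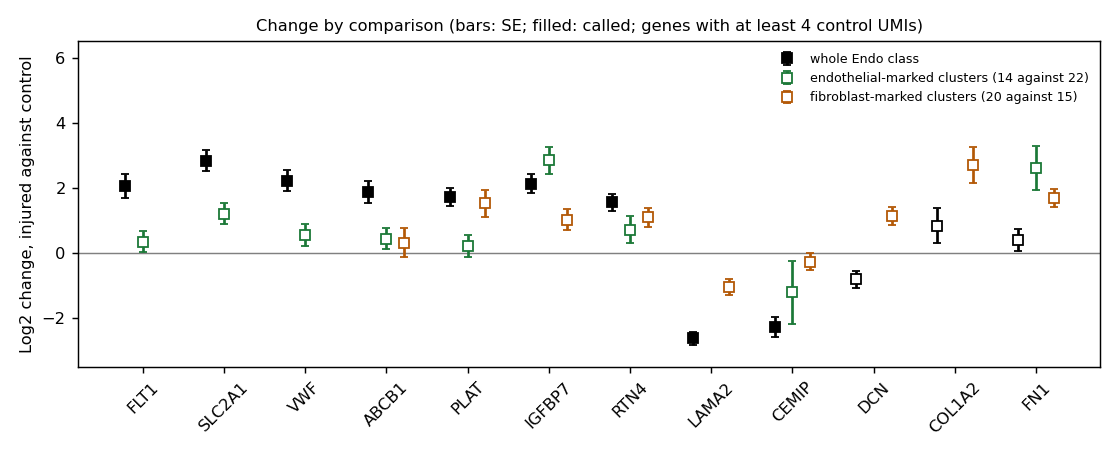
Log2 change of injured against control (y axis, with SE bars) for vascular genes with at least 4 control UMIs, in the whole Endo class and within endothelial-marked and fibroblast-marked clusters, with filled squares for called genes. FLT1, at 2.06 in the class, is at 0.35 between endothelial-marked clusters, and LAMA2, at -2.63, is at -1.05 between fibroblast-marked clusters.

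**Figure D5:**
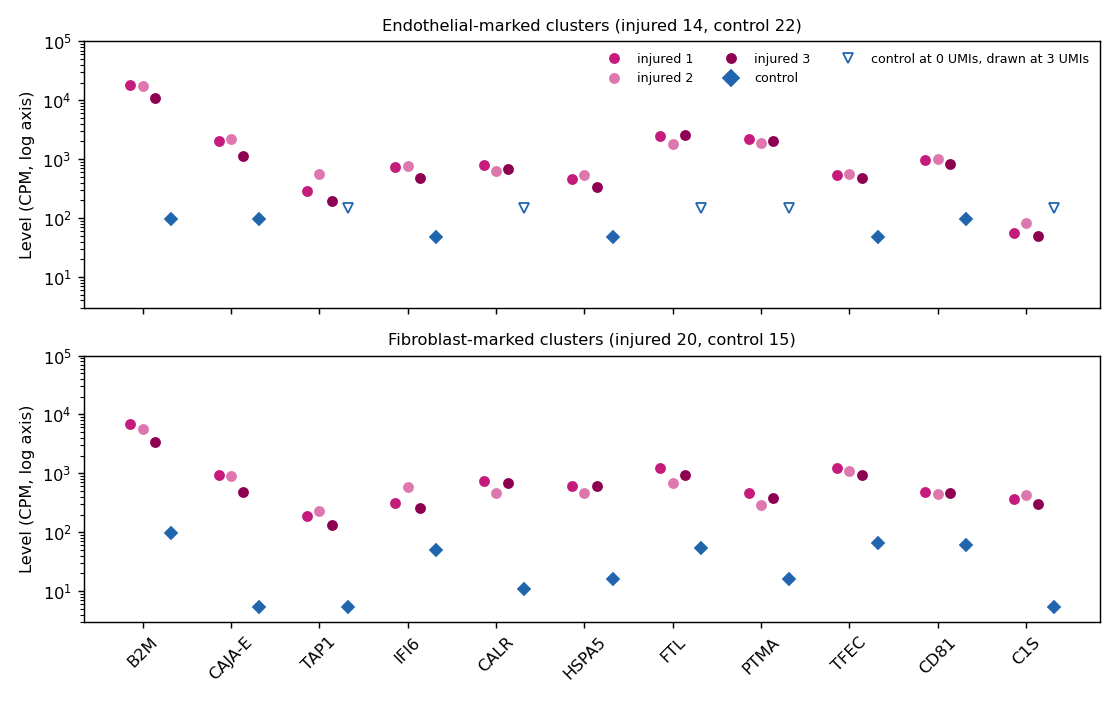
CPM (y axis, log scale) of immune, chaperone and other genes in the endothelial-marked clusters (top) and the fibroblast-marked clusters (bottom), with circles for injured libraries, diamonds for the control library and open triangles at the level of 3 UMIs where control held 0. B2M lies between 10916 and 18138 CPM in injured cluster 14 and at 97.2 CPM in control cluster 22.

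Whether a change differed from the mean change of the other 6 cell types was tested as a contrast over all 28 library and cell type sums, with library as a block. With 1 control sum for each cell type, the spread came from the injured libraries only here too. It called 618 of 13205 genes (4.68%), 161 with a more positive change in the Endo class (1.22%) and 457 with a more negative one (3.46%). Scaling by library size alone gave 218 and 294 and RLE factors 197 and 282, and these moved the contrast by a median of 0.18 and 0.19. The count was 308, 314 and 312 without injured library 1, 2 and 3. With the Endo sums taken from the fibroblast-marked clusters only, 12 genes were called (0.121% of those tested), and from the endothelial-marked clusters only, 7 (0.0626%). DESeq2 called 27 and 9. Without injured library 1, 2 and 3, edgeR called 0, 12 and 1 genes for the fibroblast-marked clusters and 0, 0 and 1 for the endothelial-marked ones, while 1063 to 1264 and 746 to 880 genes had an unadjusted p below 0.05.

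The endothelial list genes TEK and ABCB1 (2 of 12) changed more positively in the class than elsewhere, and 4 of 8 fibroblast list genes, LAMA2, DCN, COL1A2 and CEMIP, changed more negatively. The contrast for ABCB1, the efflux pump P-glycoprotein, was 2.08 ± 0.46 on the log2 scale (adjusted p = 0.00517), a call that was lost without injured library 1 or 2 (adjusted p = 0.0386 without library 2) and when thinned (0.339), as was that for TEK when thinned (0.0106). With Endo sums from the endothelial-marked clusters only, 0 of 12 endothelial list genes were called by edgeR or DESeq2 and 3 had an unadjusted p below 0.05. The median contrast of the 12 genes was -1.18, against 3.06 over all genes tested in that fit. Many of those genes had 0 control UMIs, so 3.06 is no fair background for the list. Between these clusters the median log2 change was 5.20 over all genes tested. It was -0.14 over the 1505 genes with at least 4 control UMIs. The contrast for LAMA2 was -1.45 ± 0.16 (adjusted p = 7.82e-06). With Endo sums from the fibroblast-marked clusters only, 0 of 8 fibroblast list genes were called by edgeR or DESeq2 and 1 had an unadjusted p below 0.05, with LAMA2 at 0.31 (adjusted p = 0.476). From the endothelial-marked clusters only, LAMA2 was called in the other direction, over 0 control UMIs. Of 9 mural list genes, 0 were called by edgeR or DESeq2 and 1 had an unadjusted p below 0.05, and edgeR did not call FLT1 and SLC2A1 (0.85 and 0.57), whereas DESeq2 called both (1.89 with adjusted p = 0.00219, and 1.71 with adjusted p = 0.0081). Of 11 neuronal list genes, SYT1 and RBFOX3 changed more positively (2 of 11). GRIA2, a glutamate receptor subunit outside the list, was among the 10 named rises (3.04 ± 0.43, adjusted p = 0.000112). GRIA2 was at 1289, 1502 and 1419 CPM in injured cluster 19. The contrast of the class was not run without that cluster, so its part was not tested. The class as a whole held GRIA2 at 525, 533 and 423 CPM against 49.0 CPM.

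Interferon-response genes changed more negatively in the Endo class than elsewhere where they differed, 3 of 29 at the limit of 0.01 and 0 in the other direction. Over all genes tested, 3.46% were more negative and 1.22% more positive. With Endo sums from the fibroblast-marked clusters only, 1 of 29 was called. From the endothelial-marked clusters only, 0 were called by edgeR or DESeq2 and 4 had an unadjusted p below 0.05. Their median contrast was 0.45 over the 29 genes, against 3.06 over all genes tested in that fit. As said above, 3.06 is no fair background, because many of those genes had 0 control UMIs. DDX60, an antiviral helicase, was at 758, 1909 and 653 CPM against 353 CPM in the class and had a contrast of -2.38 ± 0.46 (adjusted p = 0.00179, and 0.0278 without injured library 2). IFIT5 was at 51.4, 98.7 and 31.5 CPM against 108 CPM, with a contrast of -2.67 ± 0.44 (adjusted p = 0.00046, and 0.016 when thinned), and SAMD9L was called as well, with 0 control UMIs in 5 of the 6 other types, but not without injured library 1 or 2 or when thinned (adjusted p = 0.022). Of 16 injury-response genes, ANXA2, an annexin, and SAT1, an enzyme of polyamine breakdown, had contrasts of -3.79 ± 0.60 and -3.60 ± 0.23, and for SAT1 the contrast was -2.09 (adjusted p = 0.000102) with Endo sums from the fibroblast-marked clusters only, which without injured library 1 called 0 genes, as given above.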

How the data were processed

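Nuclei from V1 gray matter were profiled on the 10x platform, in 3 injured libraries and 1 control library pooled from 3 animals. The authors deposited raw UMI counts per nucleus, aligned to calJac3 with Ensembl genes by Cell Ranger (version 3.1.0 in the submitters' processing notes), filtered and clustered in Seurat, and gave each nucleus a cell type and a cluster. The authors removed doublets with Scrublet in the injured cohort and by quality filters in Seurat in the control cohort, and none were removed here. Cell types and clusters were taken as deposited.

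UMIs of Endo nuclei were summed per library and tested with edgeR 4.0.16 in R 4.3.3 (TMM scaling, filterByExpr, quasi-likelihood test, Benjamini-Hochberg over all genes tested), with DESeq2 1.42.0 as an alternative. With 1 control library the spread came from the injured libraries alone, and injured replicates were numbered in accession order. The contrast with the other 6 cell types was fitted on 28 sums with library as a block, and its spread came from the injured libraries alone too. Depth per library is given in the report. Genes had to be listed in both tables, where the control table held 16383 genes; genes not listed there took 1.40 to 1.66% of injured Endo UMIs, and marker lists kept members listed for both cohorts. The scripts were tested on simulated counts.

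Members of the lists and all tests were chosen with earlier results of these data known, and the comparisons of matched clusters were added after seeing the data. Named genes were the called or defining members of the lists, the 10 largest rises with at least 4 control UMIs, the 10 highest risen genes with 0 to 3 control UMIs, the 10 largest falls, and up to 10 rises and 10 falls of the contrast. Of these, genes with only an Ensembl identifier were not named, and some genes are not reported here. Ratios on 1 to 3 control UMIs carry exact 95% counting intervals, and a gene with 0 control UMIs was set against a floor of 3 UMIs. Shares carry Clopper-Pearson intervals, and nuclei were thinned to 500 UMIs to compare shares. CPM are UMIs scaled to 1000000 UMIs of the nuclei summed.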

Additional observations from a re-analysis of the deposited data

Results flagged for a closer look

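For 34 named genes, the change in the Endo class differed from the mean change of the other 6 cell types by the edgeR contrast, which tests that difference itself (adjusted p below 0.01). The spread in that contrast came from the injured libraries only. Values are differences of log2 changes, and a negative value means a more negative change in the Endo class. Among vascular and barrier genes, TEK, an endothelial receptor, was at 4.05, ABCB1 at 2.08, CTNNB1 at 1.10 and KDR at -6.78. Fibroblast and matrix genes were at -4.85 for COL1A2, -3.22 for DCN, -2.32 for CEMIP, -1.45 for LAMA2 and -1.39 for TIMP2. TIMP2 lost its call under 8 of 9 alternatives (adjusted p = 0.0112 with DESeq2 and 0.0537 without injured library 3), COL1A2 without injured library 1 (0.0163) and CEMIP without injured library 2 (0.0102). Of the 34 genes, 19 lost their call under at least 1 alternative, 14 of them without an injured library and 12 when thinned to 500 UMIs.

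Of 11 neuronal list genes 2 were called, SYT1 and RBFOX3, and the other genes given with them here are not on that list. More positive in the class were STXBP5L at 3.49, CELF4 at 3.43, DLGAP1 at 3.29, SCN1A at 3.28, PCDH7 at 3.22, KCNJ3 at 3.18, ATP2B2 at 3.12, GRIA2 at 3.04, SYT1 at 2.34 and RBFOX3 at 1.90. At 500 UMIs a nucleus, SYT1 was found in a mean of 50.6% of injured cluster 19 nuclei and 11.8% of injured cluster 14 nuclei. The contrast of the class was not run without cluster 19, so the part of that cluster was not tested. More negative were 2 of 16 injury-response genes, 3 of 29 interferon-response genes, 1 of 7 astrocyte and 1 of 9 microglia list genes, beside ALCAM and NDRG1, with ANXA2 at -3.79, SAT1 at -3.60, ALCAM at -3.35, SLC1A3 at -3.16, IFIT5 at -2.67, DDX60 at -2.38, NDRG1 at -2.35 and DOCK8 at -1.80.

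Other negative contrasts were those of ALDH1A3 at -7.56, TMEM244 at -6.49, PDE6A at -6.33, SAMD9L at -6.25, ADH1C at -6.22, ADAMTS15 at -5.97 and NR2F2 at -5.96. SAMD9L rose in the Endo class itself. TMEM244 lost its call without each injured library in turn (adjusted p = 0.0218 to 0.0244), with no filter (0.0112) and when thinned (0.0734). For these 7 genes and for KDR and COL1A2, 2 to 5 of the other cell types had 0 control UMIs, so the fitted size is no measure of the difference.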

How the results depend on the processing

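No paired analysis was possible because the control cohort is 1 pooled library. In the whole class, edgeR called 816 genes, 1802 at an adjusted p limit of 0.05, 308 in nuclei thinned to 500 UMIs, 56 in nuclei with no mural or fibroblast list UMI, 414 in nuclei with no microglia list UMI and 0 in nuclei led by the endothelial list, and 513 to 1617 with 1 injured library left out. Fewer nuclei entered the comparisons within the class. The contrast called 618 genes, 1393 at 0.05, 348 when thinned, 12 with the fibroblast-marked and 7 with the endothelial-marked clusters only, and 308 to 314 with 1 injured library left out. DESeq2 split its contrast calls into 219 higher and 385 lower, and no filter into 247 and 252.

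Between fibroblast-marked clusters the count of 11 became 75 with DESeq2, 315 with no filter, 244 at 0.05, 135 when thinned and 104 in nuclei of at most 2500 genes, and 52 to 694 with 1 injured library left out. Between endothelial-marked clusters the count of 3 became 15 with DESeq2, 1 with library size alone or when thinned, 80 with no filter, 136 at 0.05, 7 in nuclei of at most 2500 genes and 0 among genes with a UMI in both cohorts, and 6 to 228 with 1 injured library left out. The cause of these moves was not tested.

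Of 1224 values for 78 genes named in the class comparison, 934 kept direction and side of the limit, 267 were no longer called, 2 became called and 21 turned. With no mural or fibroblast list UMI, log2 changes were 0.16 for PRKAG2, -1.05 for FLT1, -0.80 for VWF, -0.95 for ERG, -0.53 for EMCN, -1.55 for CYYR1, -0.24 for SLC2A1, -0.78 for TFRC, -0.21 for ESAM, 0.82 for KDR, -1.77 for EDNRA, -1.39 for PLAT, -0.18 for EPAS1, -2.10 for PECAM1 and, over 0 control UMIs, 8.77 for SLC1A3. In endothelial-led nuclei they were -0.62 for PECAM1, 2.79 for KDR (1 control UMI) and, over 0 control UMIs, 11.02 for LAMA2, 9.57 for ALCAM and 8.11 for DCN. Without cluster 19 RBFOX3 was at -0.20, and 12 other named genes, among them SYT1, KDR, ALCAM, HBB, CD9 and RTN4, lost their call, while 1 named gene became called. With library size alone, FLT1 was at -0.40 and RTN4 at -0.038 between endothelial-marked clusters. Without injured library 1, 16 class calls were lost, among them CYYR1, TIE1, NFKBIA, TAP1, SAMD9L, EDNRA, F2R and CD9. Of 320 contrast values, 278 kept their call and 42 lost it.

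The mean injured minus control share was 17.9 points for FLT1 (7.21 thinned to 500 UMIs, 27.2 to 1000), 16.7 for the endothelial list (12.7, 24.1), 25.3 for the mural list (12.8, 15.8) and -39.4 for the fibroblast list (-53.9, -62.0, and -52.2 with at least 2 UMIs). Nuclei with fewer than 1000 UMIs drop out at that depth, and the median nucleus of control cluster 22 had 748 UMIs. The depths therefore cover different nuclei. The mean injured Endo share of 15.1% was 20.9% without microglia and 11.7% among nuclei with at least 1000 UMIs. Control sums were 20585 UMIs for the endothelial-marked clusters and 16960 UMIs for nuclei with no mural or fibroblast list UMI. The filter behind the latter also shifted the cluster make-up, as given above.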

Other observations

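Several genes of injured endothelial-marked nuclei were not listed in the control table and so entered the class comparison only under an alternative that set them to 0 there. In injured cluster 14, CLDN5 was at 3769, 3188 and 3586 CPM, and SOX17, an endothelial transcription factor, was at 214, 143 and 144 CPM. The interferon-induced chemokine CXCL10 was at 1030, 2596 and 689 CPM there, CXCL11 at 214, 889 and 61.4 CPM, and GBP1, an interferon-induced GTPase, at 871, 2455 and 420 CPM. Injured library 2 was the highest of the 3 libraries for CXCL10, CXCL11 and GBP1, and for CLDN5 it was the lowest.

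Cluster 14 held nuclei led by mural genes as well, which made up 13.7%, 12.9% and 12.8% of it, beside 80.8%, 82.0% and 82.6% led by the endothelial list. Mural-led nuclei held GRM8, a glutamate receptor, at 1646, 1489 and 1560 CPM, against 198, 319 and 248 CPM in the endothelial-led nuclei of the cluster. PDE3A, a phosphodiesterase, was at 730, 1260 and 885 CPM against 89.3, 204 and 163 CPM. TSPAN5, a tetraspanin, was at 217, 175 and 437 CPM in mural-led nuclei against 1668, 1774 and 2158 CPM, and ITGA6, an integrin chain, at 124, 121 and 151 CPM against 863, 860 and 903 CPM. These genes were chosen for their difference between the nuclei, so no test is given.

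UMIs of the endothelial list were also found outside the class. Nuclei with at least 5 UMIs of the endothelial list, and more of it than of the mural and fibroblast lists, numbered 254, 530 and 552 in the Endo class of the injured libraries. Another 255 of 2823, 63 of 2692 and 202 of 2218 nuclei labelled microglia met the same rule, so that in injured library 1 there were as many in that label as in the Endo class. Excitatory neurons met it in 28 of 1861, 52 of 4562 and 23 of 3013 nuclei of the injured libraries and in 18 of 5402 of the control library. In the control library 22 Endo nuclei and 1 of 129 microglia nuclei met it.

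Injured cluster 20, the fibroblast-marked nuclei, held UMIs of the cell cycle genes TOP2A (179, 42.3 and 65.7 CPM) and MKI67 (58.3, 6.61 and 38.6 CPM). Control cluster 15 held 0 UMIs of either gene, and TOP2A was at least 4.96-fold and MKI67 at least 1.95-fold higher in the injured nuclei. Neither gene was called.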
